A study of Homo sapiens with 6 samples.

Results

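The genes described are those of antigen processing and presentation: the chains of the class I and class II molecules, the proteins that cut, carry and load their peptides, the factors that switch the genes on, and ligands of the killer-cell receptor NKG2D. They were taken as the rows of the deposited count table whose Ensembl gene IDs match a list of 39 symbols, the members. All 39 matched, of 58051 rows in all, and 37 of them were among the 16690 genes that passed a filter on low counts. The cells were A375, a human melanoma cell line with mutant BRAF. Both groups were serum-starved for 2 h. The TGFB1 group (3 libraries) then received 10 ng/mL human recombinant TGFB1 for 2 h, and the Vehicle group (3 libraries) received 4 mM HCl with 1 mg/mL BSA for the same time. The series' design text calls these technical triplicates, and 1 line was used, so the p-values describe no more than how far libraries of a group lie apart. In bulk RNA, fewer cells of a kind and less RNA per cell cannot be told apart.

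Class I molecules show peptides from inside the cell to CD8+ T cells. The proteasome cuts the peptides, the TAP transporter pumps them into the endoplasmic reticulum, aminopeptidases trim them, and a loading complex places them on a heavy chain paired with beta-2 microglobulin. Class II molecules show peptides from endosomes to CD4+ T cells. They are folded on the invariant chain and are made mainly by professional antigen-presenting cells, although some melanomas make them too. Interferon gamma raises most of these genes through IRF1 and the coactivators NLRC5 and CIITA.

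Library totals ran from 24713894 to 34895075 counts, and the members took 0.576% to 0.593% of them. Levels are given as CPM, a gene's counts relative to the scaled total of its library, in which 1 count was worth 0.0287 to 0.0409 CPM. The labelled cell type was checked against markers. Of 11 leukocyte and antigen-presenting cell markers, 9 had under 20 counts in every library. SPI1, a defining factor of myeloid and B cells, was listed at 0 in all 6, and PTPRC (CD45) averaged 0.261 CPM in Vehicle. LYZ and ITGAX were the exceptions, averaging 6.63 and 1.85 CPM in Vehicle. The other 9 summed to at most 1.06 CPM in any library. Of the exonic bases of LYZ, 34% lie under exons of the other strand, and ITGAX had 81, 30 and 43 counts in Vehicle. The summed level of all 11 ran from 8.13 to 10.8 CPM in Vehicle and from 7.25 to 8.09 CPM with TGFB1. Of the melanocyte markers, SOX10 was listed at 0, TYR and MLANA averaged 0.0315 and 0.262 CPM in Vehicle, while MITF averaged 62.7 and S100B 58.9 CPM. MITF fell with TGFB1, to 53.5 CPM (fold change 0.853, 95% interval 0.780 to 0.933, adjusted p = 0.0355). MLANA lay higher with TGFB1, at 0.502 CPM without overlap, on 7 to 19 counts a library, and did not pass (adjusted p = 0.563). PMEL, DCT and TYRP1 averaged 0.913, 5.08 and 0.444 CPM in Vehicle and 0.534, 3.57 and 0.322 CPM with TGFB1. For each of them the groups overlapped, and none passed. The 5 markers of dedifferentiated melanoma ranged from 0.490 CPM (SOX9) to 226 CPM (AXL) in Vehicle. The summed level of the melanocyte markers was 121 to 137 CPM in Vehicle and 111 to 117 CPM with TGFB1. That of the dedifferentiated markers was 407 to 429 and 441 to 450 CPM, and that of 4 fibroblast and endothelial markers 11.9 to 13.2 and 9.26 to 10.7 CPM. None of these sums overlapped between groups, as was so for 16.4% of all tested genes taken singly. For the leukocyte markers the nearest libraries stood at 8.13 and 8.09 CPM. MITF and S100B made up most of the melanocyte sum, and AXL and NT5E most of the dedifferentiated sum. Taken singly, S100B, NT5E, LYZ and ITGAX overlapped between groups. The part of these sums in the results was not tested.

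In Vehicle, several class II genes were among the most abundant members, and others among the least. For levels between genes, CPM was divided by the gene's exonic length in kb, the union of its annotated exons. HLA-DRA, the class II alpha chain of HLA-DR, had the highest value at 381.7 ± 18.2 CPM per kb (SD, n = 3), above that of 99.4% of all tested genes. Next came the loading chaperones CALR (256 ± 12.5) and CANX (233 ± 7.77), the invariant chain gene CD74 (213 ± 19.8) and B2M (146 ± 8.37), all in CPM per kb. The Vehicle libraries of CANX and CD74 overlapped, so that pair is not ordered beyond its spread, while the other neighbours among these 5 did not overlap. PDIA3 (61.9), HLA-E (54.0), HLA-DPA1 (48.4), PSME1 (45.1), HLA-DRB1 (43.2) and HLA-B (35.7) followed, in CPM per kb. Of these, HLA-DPA1 overlapped PSME1 and PSME1 overlapped HLA-DRB1.

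The order of those 5 leading genes rests on the length used. With the longest single transcript in place of the exon union, CD74 stood at 392, HLA-DRA at 381.7, B2M at 369.9, CALR at 366 and CANX at 341 CPM per kb. The same 5 genes lead by either length. HLA-B moved from 35.7 to 70.5 and HLA-E from 54.0 to 61.8 CPM per kb, which turns their order. The class II list held 42.2% ± 0.175 (SD, n = 3) of the members' summed level in Vehicle, and 37.3% ± 0.684 by the longest transcript. At the other end stood HLA-DQA1 (0.895), HLA-F (0.831), ERAP2 (0.665), CTSS (0.573), HLA-DQB1 (0.501) and NLRC5 (0.496), and lowest of all HLA-G (0.0697) and IFI30 (0.0397), in CPM per kb of exon union.

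**Figure D1:**
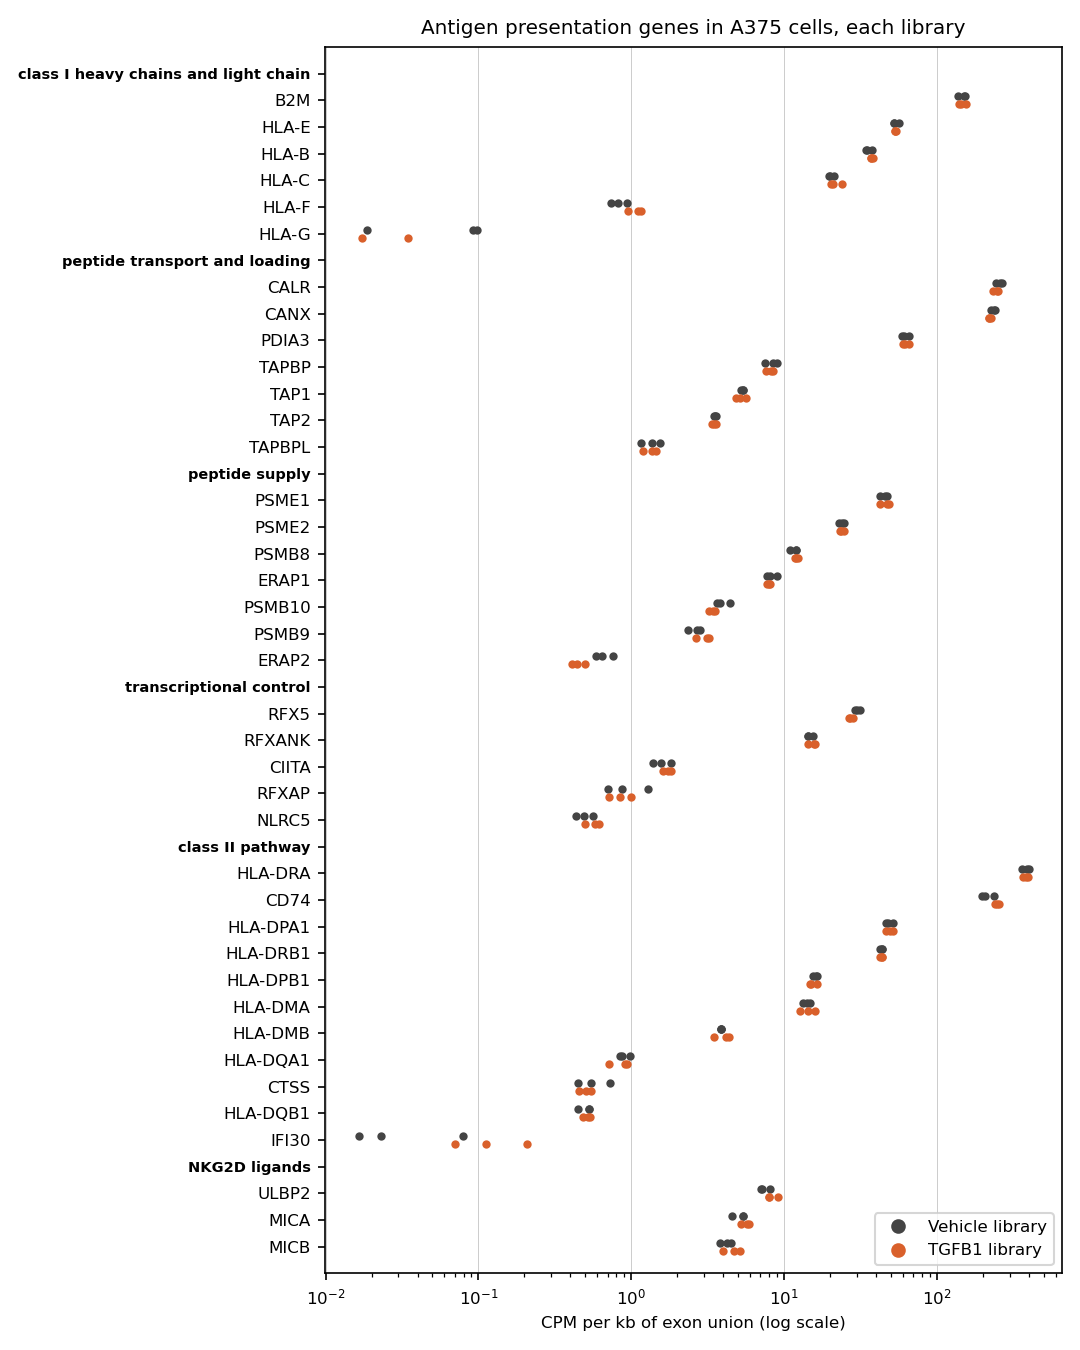
Level of each of the 39 members in every library, as CPM per kb of exon union on a log axis, grouped by role and ordered by the Vehicle mean; each point is 1 library, and the TGFB1 library in which HLA-G had 0 counts cannot be drawn. HLA-DRA is the highest row, and the points of both groups lie on top of each other for most genes.

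With TGFB1, 1 of the 37 tested members passed an adjusted p of 0.05, CD74, which rose, and 0 fell. That is 2.70% of the members, against 3.31% of all 16690 tested genes (edgeR quasi-likelihood test, Benjamini-Hochberg over all of them). DESeq2 and limma-voom also called CD74 and no other member, while 5 of 13 alternatives, given with CD74, called 0 members. Leaving out 1 library moved the calls over all genes from 553 to between 365 (without TGFB1 replicate 1) and 923 (without Vehicle replicate 3). At an unadjusted p under 0.05 there were 3 members (8.11%), against 12.3% of all tested genes. Without any overlap between groups, 2 members lay higher with TGFB1, 5.41% against 8.96% of all tested genes, and 3 lay lower, 8.11% against 7.49%. On both sides together this was 13.5% of the members and 16.4% of all tested genes. Of the log2 fold changes, 18 were above 0 and 19 below, with a median of -0.003, beside -0.00674 over all tested genes.

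A change that misses the threshold is not shown to be absent, so each member's 95% interval is given. For 33 of the 37 members the interval of the fold change lay inside 1.5-fold in both directions, a share of 89.2%, against 64.2% of all tested genes. Intervals are wider at low counts, and the shares were not matched for level, so they do not show that the members were steadier. The exceptions were HLA-F, ERAP2, RFXAP and CTSS, 4 genes of low counts. For all 37 it lay inside 2-fold.

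**Figure D2:**
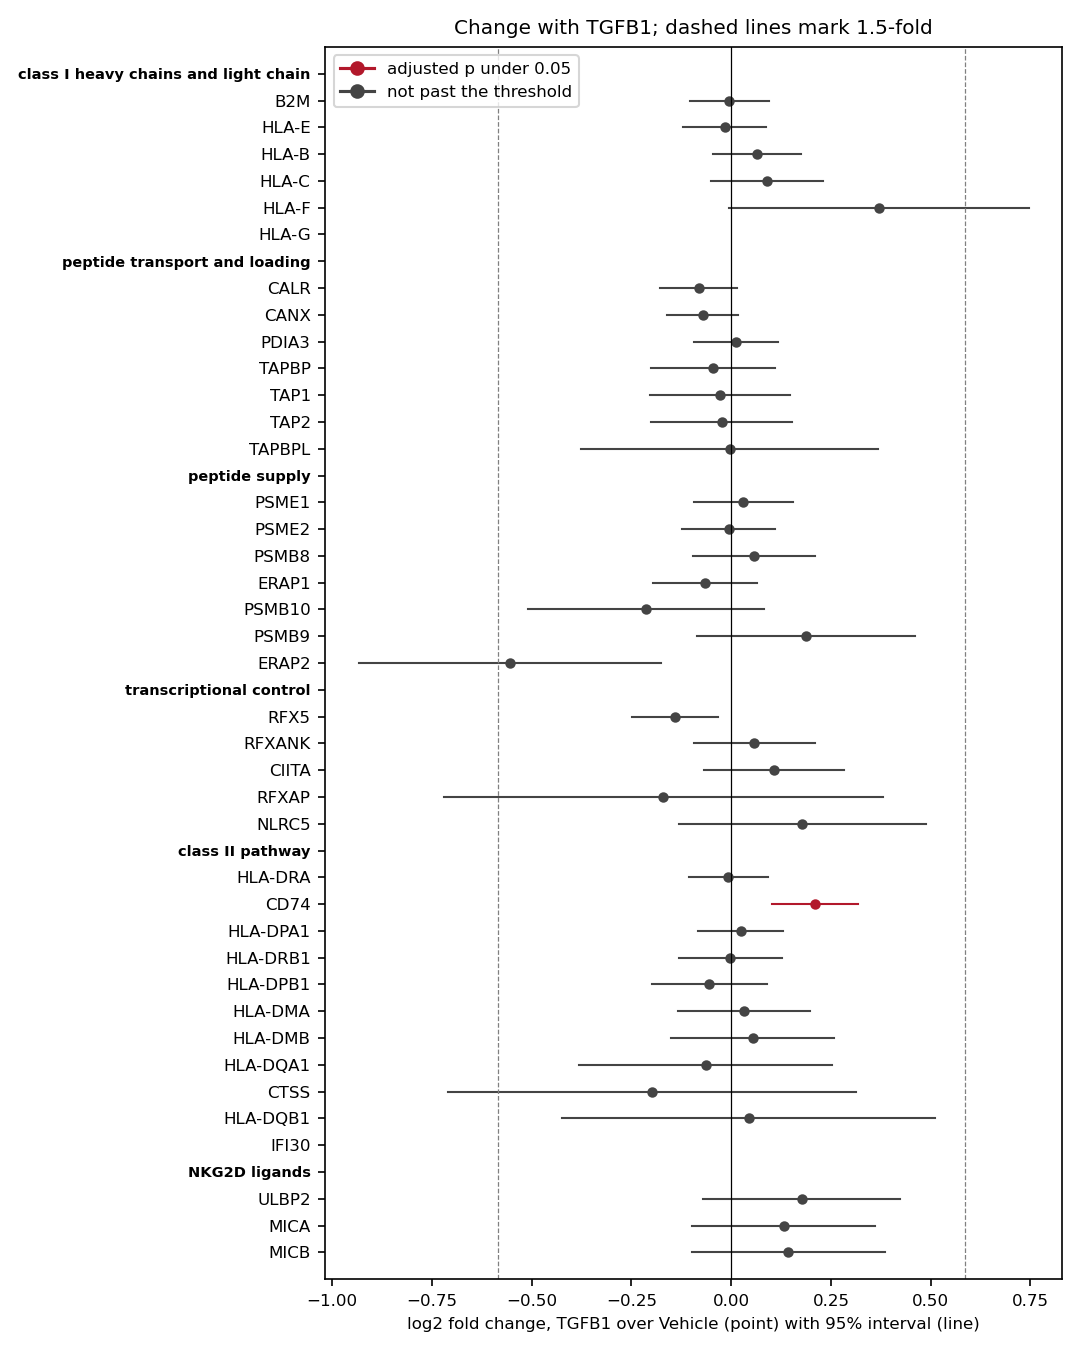
Log2 fold change of TGFB1 over Vehicle for the 37 tested members (point) with its 95% interval (line), grouped by role; dashed lines mark 1.5-fold, and HLA-G and IFI30 were too low to test. CD74, at 0.21, is the single member past the threshold, and the lines of 33 members stay between the dashed lines.

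Promoters of a few members are shown as examples: the class I light chain and a heavy chain, a class II beta chain, and CD74, the member that passed the test. Each is the 250 bases before the RefSeq start (GRCh38.p14), 5′ to 3′ on the gene's strand. Capitals mark the letters searched on either strand: GAAA followed by any 2 bases and GAAA, the core of the interferon-stimulated response element; TTCNNNGAA, that of the gamma-activated site; CCAAT, the Y box core bound by NF-Y; GCAAC, from the X1 box bound by RFX; CAGAC, the SMAD box; and TGANTCA, the AP-1 site.
B2M, chr15:44711267-44711516, plus strand: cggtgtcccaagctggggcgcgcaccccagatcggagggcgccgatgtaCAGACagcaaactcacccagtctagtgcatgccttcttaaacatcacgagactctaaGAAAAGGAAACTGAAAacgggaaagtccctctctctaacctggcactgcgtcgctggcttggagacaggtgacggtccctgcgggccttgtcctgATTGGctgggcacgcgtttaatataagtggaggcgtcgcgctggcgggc
HLA-B, chr6:31357180-31357429, minus strand: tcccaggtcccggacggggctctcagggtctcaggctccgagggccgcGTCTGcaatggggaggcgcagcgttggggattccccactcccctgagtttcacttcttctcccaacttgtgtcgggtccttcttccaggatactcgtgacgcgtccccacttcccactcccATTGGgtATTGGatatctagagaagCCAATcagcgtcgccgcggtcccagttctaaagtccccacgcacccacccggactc
HLA-DRB1, chr6:32589849-32590098, minus strand: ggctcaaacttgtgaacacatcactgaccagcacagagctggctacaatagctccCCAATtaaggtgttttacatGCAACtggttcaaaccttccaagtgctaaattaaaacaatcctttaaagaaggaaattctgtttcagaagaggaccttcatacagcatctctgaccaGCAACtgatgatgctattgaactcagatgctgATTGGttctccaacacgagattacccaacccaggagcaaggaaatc
CD74, chr5:150412911-150413160, minus strand: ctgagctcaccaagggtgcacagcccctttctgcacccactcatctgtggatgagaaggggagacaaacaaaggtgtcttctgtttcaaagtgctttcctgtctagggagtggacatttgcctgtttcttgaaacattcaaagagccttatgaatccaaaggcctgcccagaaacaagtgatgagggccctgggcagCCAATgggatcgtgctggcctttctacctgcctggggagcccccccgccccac

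In B2M, the capitals hold overlapping copies of the interferon element that begin 144 and 138 bases before the start, a Y box core at 49 and a SMAD box at 201. In HLA-B they hold Y box cores at 81, 74 and 56 bases and a SMAD box at 202. HLA-DRB1 has X1 box letters at 175 and 78 bases and Y box cores at 195 and 46, and CD74 has 1 match, a Y box core at 53 bases. RefSeq windows were found for 33 of the 39 members, and none for CIITA, CTSS, HLA-DRA, HLA-E, NLRC5 and PDIA3. The interferon element core stood in the windows of 9 of these 33 genes (27.3%), against 3.71% of all 27305 genes with a window: B2M, HLA-F, TAP1, TAP2, TAPBP, PSMB10, PSME2, ERAP2 and RFX5. The Y box core stood in 66.7% against 37.0%, and the X1 box letters in 30.3% against 32.5%. The SMAD box stood in 54.5% against 42.8%, the AP-1 site in 6.06% against 8.06% and the gamma-activated site core in 9.09% against 8.09%. Some genes have several windows, which raises their chance of a match. By window the interferon element core stood in 18.8% of 48 against 3.02% of 35116. The Y box core stood in 50% of windows against 32%, and the SMAD box in 37.5% against 38%. By window, then, the SMAD box was no more frequent in the members than in all genes. A match in letters is a description and not a measured site. Of the 9 genes with the interferon element core, 0 passed the test of TGFB1 against Vehicle, beside 3.31% of all tested genes. ERAP2 and RFX5 had an unadjusted p under 0.05, beside 12.3% of all tested genes. The 9 genes are too few to tell either count from these shares.

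Among the class I chains, 0 of the 5 tested genes passed (3.31% of all tested genes did), and 0 had an unadjusted p under 0.05 (12.3% did). Each role held 3 to 10 tested genes, too few to tell its counts from these shares. B2M (chromosome 15, 44711487 to 44718877), the light chain of all class I molecules, held 928, 907 and 831 CPM in the Vehicle libraries and 867, 939 and 852 CPM with TGFB1. The groups overlapped fully, and the fold change was 0.997 (95% interval 0.931 to 1.07, adjusted p = 0.988). HLA-E (chromosome 6, 30489467 to 30494205), a nonclassical heavy chain read by NK cell receptors, held 169, 156.5 and 157 CPM in Vehicle and 159, 157.5 and 160.2 CPM with TGFB1. Its fold change was 0.989 (0.920 to 1.06, adjusted p = 0.954). The classical heavy chain genes HLA-B and HLA-C averaged 109 and 51.1 CPM in Vehicle and 114 and 54.4 CPM with TGFB1, with fold changes of 1.05 (0.969 to 1.13) and 1.06 (0.965 to 1.17).

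HLA-F, a nonclassical heavy chain gene whose libraries are given in full after its values were seen, lay much lower. It held 3.56, 4.07 and 3.19 CPM in Vehicle and 5.02, 4.16 and 4.79 CPM with TGFB1. The groups did not overlap, by a small margin, and the fold change of 1.29 (95% interval 0.996 to 1.68) did not pass (adjusted p = 0.417). Of its exonic bases, 28.5% lie under exons of the other strand, among them HLA-F-AS1, so its counts are uncertain. HLA-G, the heavy chain known from the placenta, had 4, 1 and 6 counts in Vehicle and 1, 0 and 2 with TGFB1, too few to test.

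The classical genes are polymorphic, and reads from an allele unlike the reference may not be aligned. Levels of HLA genes against each other therefore carry an error that the spread between libraries does not show. Of the 50-base stretches in annotated transcripts, 2.72% of HLA-B, 5.38% of HLA-C and 4.34% of HLA-E also occur in another gene. The annotated span of HLA-B (chromosome 6, 31269491 to 31357188) reaches over HLA-C, and reads in their shared exonic bases cannot be told apart.

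Of the 7 peptide loading genes, 0 passed the test, adjusted or not, beside 3.31% and 12.3% of all tested genes. The log2 fold changes of the 7 lay between -0.08 and 0.01. CANX, which encodes calnexin, the chaperone of new heavy chains, had the highest CPM of all members: 1462, 1493 and 1398 in Vehicle and 1358, 1414 and 1370 with TGFB1. The groups overlapped in 1 library each, and the fold change was 0.952 (95% interval 0.895 to 1.01, adjusted p = 0.56). CALR, for calreticulin of the loading complex, held 659, 701 and 727 CPM in Vehicle and 666, 630.3 and 676 CPM with TGFB1. Its fold change was 0.945 (0.884 to 1.01, adjusted p = 0.524). The summed level of the 7 genes was 555 to 577 CPM per kb in Vehicle and 542 to 549 with TGFB1, without overlap. Nearly all of it came from CALR, CANX and PDIA3. The class II sum did not overlap either but lay higher, at 720 to 724 CPM per kb in Vehicle and 725 to 771 with TGFB1. For the other roles the sums overlapped. Among all tested genes taken singly, 16.4% did not overlap.

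PDIA3, for the oxidoreductase ERp57 of the same complex, averaged 262 and 264 CPM (fold change 1.01, 0.937 to 1.08). Both genes of the peptide pump stood far lower, TAP1 at 25.6 and 25.1 CPM and TAP2 at 22.6 and 22.2 CPM in Vehicle and with TGFB1. Their intervals ran from 0.869 to 1.11 and from 0.870 to 1.11. TAPBP, for tapasin, which bridges the pump and the heavy chain, averaged 42.1 and 40.9 CPM, and its relative TAPBPL, a peptide editor, 4.31 and 4.28 CPM. For TAP2, 32.3% of the exonic bases are shared with another gene on the same strand, and PDIA3 shares 15.3% of its 50-base stretches with its pseudogenes PDIA3P1 and PDIA3P2, so these counts are uncertain.

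Of the 7 peptide supply genes, 0 passed the test, beside 3.31% of all tested genes. ERAP2 alone (1 of 7) had an unadjusted p under 0.05, beside 12.3% of all tested genes. ERAP2 (chromosome 5, 96875939 to 96919716) encodes an aminopeptidase that trims peptides in the endoplasmic reticulum. It held 5.65, 4.80 and 4.37 CPM in Vehicle and 3.29, 3.70 and 3.04 CPM with TGFB1, from 99 to 152 counts a library. All 3 TGFB1 libraries lay below all 3 Vehicle libraries. The fold change of 0.681 (95% interval 0.524 to 0.885) did not pass the correction (adjusted p = 0.116), and over the alternatives the adjusted p ran from 0.0521 to 0.405. Its partner ERAP1, at 65.9 CPM in Vehicle and 62.9 with TGFB1, had a fold change of 0.956 (0.874 to 1.04).

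PSME1 and PSME2 encode the activator ring that opens the proteasome. PSME1 held 83.9, 81.9 and 75.3 CPM in Vehicle and 83.9, 86.2 and 75.9 CPM with TGFB1, a fold change of 1.02 (95% interval 0.937 to 1.11, adjusted p = 0.912). PSME2 held 81.7, 88.7 and 86.2 CPM in Vehicle and 83.8, 88.8 and 82.8 CPM with TGFB1, a fold change of 0.996 (0.919 to 1.08, adjusted p = 0.987). For both genes the groups overlapped throughout.

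The catalytic subunits of the immunoproteasome replace constitutive ones, so each was set against the subunit it replaces in the same library, per length. In Vehicle, PSMB8 stood at 13.0%, 13.0% and 11.9% of PSMB5, PSMB9 at 3.66%, 3.11% and 3.55% of PSMB6, and PSMB10 at 2.31%, 2.00% and 1.92% of PSMB7. The constitutive subunits thus exceeded their replacements in every library. With TGFB1 the shares were 13.5%, 12.9% and 13.3% for PSMB8, 4.04%, 4.20% and 3.28% for PSMB9, and 1.80%, 1.82% and 1.68% for PSMB10. The groups overlapped for PSMB8 and PSMB9. For PSMB10 they did not, with a mean of 2.08% ± 0.206 in Vehicle and 1.77% ± 0.0741 with TGFB1 (SD, n = 3 each). Exact two-sided permutation tests of the 3 log2 ratios gave p = 0.3, 0.3 and 0.1, each 0.3 after Benjamini-Hochberg adjustment over the 3, and 3 libraries against 3 cannot give a p below 0.1. PSMB10 itself, given in full after its values were seen, held 8.18, 7.03 and 6.72 CPM in Vehicle and 6.39, 6.50 and 5.96 CPM with TGFB1, a fold change of 0.863 (95% interval 0.703 to 1.06, adjusted p = 0.62). PSMB10 shares 34.8% of its exonic bases with another gene on the same strand, so its level is uncertain.

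**Figure D3:**
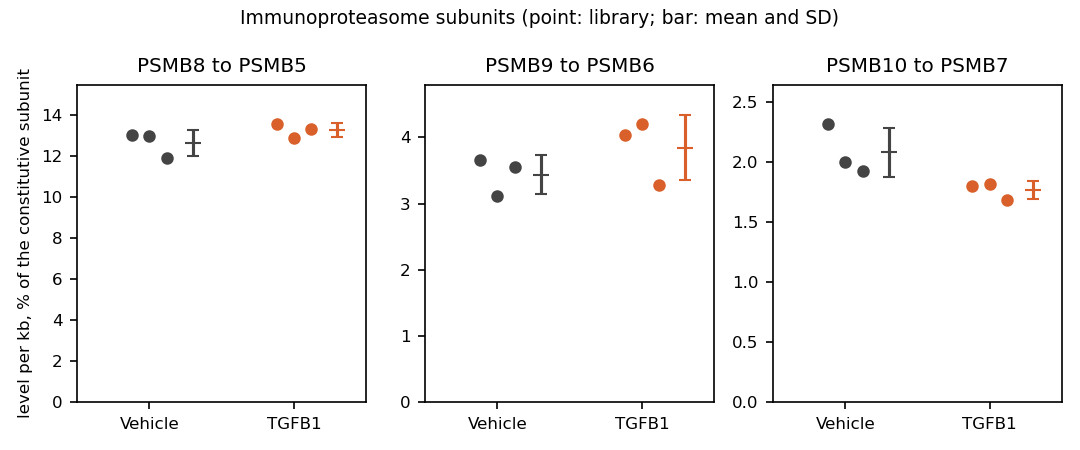
Level per kb of PSMB8, PSMB9 and PSMB10 as a percentage of PSMB5, PSMB6 and PSMB7 in each library (point), with mean and SD (bar), for Vehicle and TGFB1. PSMB10 is the one ratio whose groups do not overlap, 1.92% to 2.31% in Vehicle and 1.68% to 1.82% with TGFB1.

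Of the 5 genes that control the others, 0 passed the test, beside 3.31% of all tested genes. RFX5 alone (1 of 5) had an unadjusted p under 0.05, beside 12.3% of all tested genes. RFX5 (chromosome 1, 151340640 to 151347357) encodes the DNA-binding subunit of the RFX complex on the X box. It held 144, 138 and 133 CPM in Vehicle and 123, 130.3 and 122.5 CPM with TGFB1, so the groups did not overlap. The fold change of 0.908 (95% interval 0.842 to 0.978) had an unadjusted p of 0.0128 and an adjusted p of 0.2. RFXANK, another RFX subunit, held 38.7, 35.8 and 35.9 CPM in Vehicle and 39.8, 39.4 and 35.6 CPM with TGFB1, a fold change of 1.04 (0.937 to 1.16, adjusted p = 0.847). RFXAP, the remaining subunit, averaged 2.20 and 1.96 CPM, from 40 to 90 counts a library, and its interval was wide (0.607 to 1.30).

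CIITA, the coactivator that class II transcription depends on, averaged 33.2 ± 4.49 CPM in Vehicle and 35.8 ± 2.13 CPM with TGFB1 (SD, n = 3 each). Its fold change was 1.08 (95% interval 0.954 to 1.22, adjusted p = 0.696). NLRC5, its counterpart for class I genes, averaged 6.14 ± 0.822 and 6.96 ± 0.754 CPM (fold change 1.13, 0.913 to 1.40). Per kb, CIITA stood at 1.60 and NLRC5 at 0.496 in Vehicle. The exon union of CIITA, at 20757 bases, includes a transcript of 16059 bases, and 11.5% of it is shared with genes on the same strand, so the level of CIITA is uncertain.

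Of the 10 tested class II genes, 1 passed the test, beside 3.31% of all tested genes: CD74, the gene of the invariant chain. CD74 (chromosome 5, 150401637 to 150412929) held 624, 661 and 747 CPM in Vehicle and 807.5, 781 and 762 CPM with TGFB1. All 3 TGFB1 libraries lay above all 3 Vehicle libraries, with Vehicle replicate 3 the closest. It rose by 0.21 ± 0.05 (SE) on the log2 scale, a fold change of 1.16 (95% interval 1.07 to 1.245, adjusted p = 0.0164). None of its 50-base stretches occurs in another annotated gene. The call did not hold without Vehicle replicate 1 (fold change on the log2 scale 0.16, adjusted p = 0.146), Vehicle replicate 2 (0.149), TGFB1 replicate 1 (0.157) or TGFB1 replicate 2 (0.0603), nor with total counts in place of TMM scaling (0.0895). Over all 13 alternatives its adjusted p ran from 3.06e-05 to 0.157, and in each it was higher with TGFB1.

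HLA-DRA (chromosome 6, 32439842 to 32445046), whose protein CD74 accompanies, held 508, 494.5 and 463 CPM in Vehicle and 489, 505 and 464.5 CPM with TGFB1. The groups overlapped throughout, and the fold change was 0.995 (95% interval 0.929 to 1.07, adjusted p = 0.982). Whether CD74 and HLA-DRA changed by different amounts was not tested. HLA-DRB1, the beta chain of HLA-DR, averaged 53.1 and 53.0 CPM (0.998, 0.912 to 1.09). HLA-DPA1 averaged 278 and 283 CPM (1.02, 0.945 to 1.09) and its partner HLA-DPB1 44.5 and 42.9 CPM (0.963, 0.872 to 1.06). The HLA-DQ rows among the members were low, HLA-DQA1 at 6.20 and 5.91 CPM and HLA-DQB1 at 2.46 and 2.53 CPM. Their near copies HLA-DQA2 and HLA-DQB2 averaged 7.76 and 1.31 CPM in Vehicle and 7.85 and 1.77 CPM with TGFB1. Per kb, HLA-DQA2 stood at 5.09 in Vehicle, above the 0.895 of HLA-DQA1. Of the 50-base stretches, 2.07% of HLA-DQA1 and 1.51% of HLA-DQB1 occur in another gene. DQ reads may therefore be split between these rows, which was not tested.

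The alpha chains exceeded their beta chains per length in every Vehicle library for DR (362 to 397 against 42.2 to 44.0 CPM per kb) and DP (46.1 to 51.2 against 15.4 to 16.4). The beta chain of DR is the more polymorphic, and 9.92% of the 50-base stretches of HLA-DRB1 occur in another gene, mainly its copy HLA-DRB5. HLA-DRB5 itself held 15.3 to 15.9 CPM in Vehicle and 16.4 to 17.6 CPM with TGFB1, so the DR beta chain reads may be split between them. The part of allele and copy in this gap was not tested.

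HLA-DMA and HLA-DMB encode the editor that removes the remnant of the invariant chain from class II molecules. They averaged 35.7 and 17.9 CPM in Vehicle and 36.4 and 18.6 CPM with TGFB1, with intervals of 0.911 to 1.15 and 0.901 to 1.20. CTSS, for the protease cathepsin S that digests the invariant chain in antigen-presenting cells, averaged 2.42 and 2.12 CPM (0.871, 0.611 to 1.24). IFI30, for the thiol reductase GILT of endosomes, had 1, 6 and 2 counts in Vehicle and 17, 6 and 9 with TGFB1, below the filter. The groups of IFI30 overlapped, and 40.2% of its exonic bases are shared with a gene on the same strand, so no change is read from them. In Vehicle, then, HLA-DRA, CD74 and HLA-DPA1 were among the highest members per kb and CTSS and IFI30 among the lowest.

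The NKG2D ligands mark stressed cells for NK cells. Against 3.31% and 12.3% of all tested genes, 0 of the 3 members passed the test, adjusted or not. Their log2 fold changes lay between 0.13 and 0.18, and those of the other tested ligands between -0.90 (RAET1G, with 6 to 15 counts a library) and 0.28 (ULBP1). ULBP2 held 10.9, 9.53 and 9.62 CPM in Vehicle and 12.4, 10.8 and 10.75 CPM with TGFB1, a fold change of 1.13 (95% interval 0.953 to 1.34, adjusted p = 0.622). MICA held 12.9, 10.9 and 12.9 CPM in Vehicle and 12.5, 13.6 and 14.1 CPM with TGFB1, a fold change of 1.10 (0.935 to 1.28, adjusted p = 0.722). The groups overlapped for both. MICB averaged 11.7 and 12.9 CPM (1.10, 0.934 to 1.31). Of the 50-base stretches of ULBP2, 32.2% occur in its neighbours RAET1L and RAET1G, so its counts are uncertain.

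**Figure D4:**
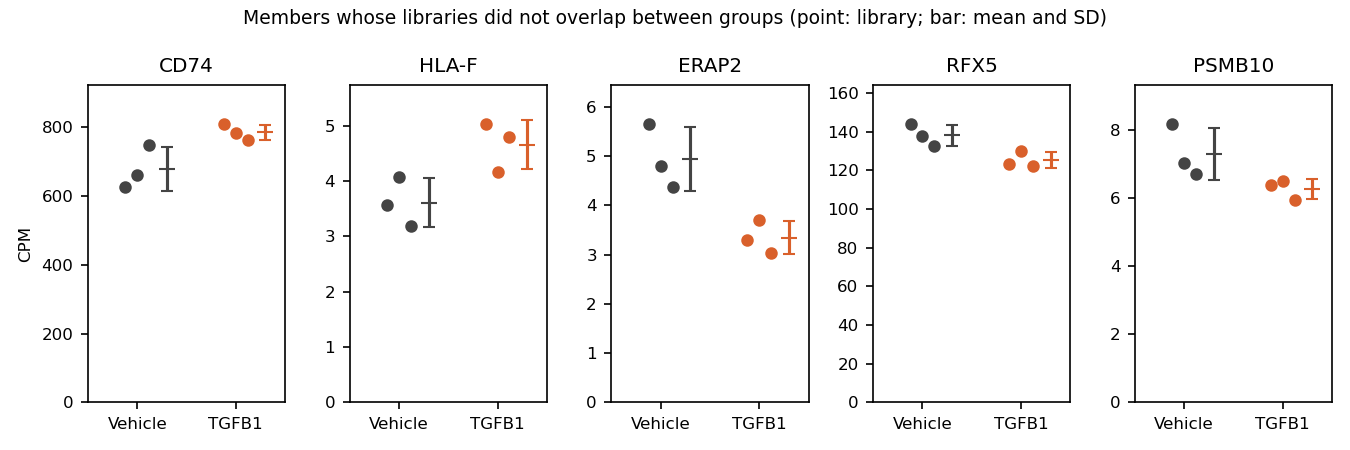
CPM of CD74, HLA-F, ERAP2, RFX5 and PSMB10 in each library (point), with mean and SD (bar), on axes that start at 0; these are the 5 members whose groups did not overlap. CD74, the member past the adjusted threshold, runs from 624 to 747 CPM in Vehicle and from 762 to 807.5 CPM with TGFB1.

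Of 70 other genes of the pathway, in 6 lists, 68 were tested, 1 rose (1.47%, against 3.31% of all tested genes) and 0 fell, and the median log2 fold change was -0.00172. The counts were 0 of 17 for the constitutive proteasome, 0 of 13 for endoplasmic reticulum folding, export and cytosolic peptidases, and 0 of 10 for endosomal processing. They were 0 of 7 for other class I-like molecules and NKG2D ligands and 0 of 7 for other factors that bind the promoters, NF-Y and CREB among them. Across the 68, an unadjusted p under 0.05 was seen for 10 (14.7%, against 12.3%), 5 higher and 5 lower.

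Of 14 genes that carry or restrain the interferon signal to the members, 1 passed (7.14%, against 3.31% of all tested genes). An unadjusted p under 0.05 was seen for 4 (28.6%, against 12.3% of all tested genes), 2 higher and 2 lower. SOCS3, an inhibitor of JAK kinases, held 18.0, 16.6 and 13.9 CPM in Vehicle and 25.1, 24.8 and 25.0 CPM with TGFB1, a fold change of 1.55 (95% interval 1.35 to 1.77, adjusted p = 3.19e-05). SOCS1, its relative and the lower of those 2 in fold, had 9, 11 and 13 counts in Vehicle and 6, 2 and 1 with TGFB1, without overlap (fold change 0.253, 95% interval 0.0872 to 0.734, adjusted p = 0.202). STAT2, the other lower gene, averaged 36.8 CPM in Vehicle and 31.3 CPM with TGFB1 (fold change 0.850, 0.762 to 0.9485, adjusted p = 0.11). IFNGR2, the other higher gene, averaged 59.1 and 66.7 CPM (1.13, 1.03 to 1.23, adjusted p = 0.15). The groups overlapped for neither. IRF1, a transcription factor of the interferon response, averaged 10.5 CPM in Vehicle and 10.2 CPM with TGFB1, with an interval of 0.784 to 1.18. SOCS1, STAT2, IFNGR2 and IRF1 are named after their values were seen.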

How the data were processed

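RNA-seq was done on 6 libraries of A375 cells, 3 per group. The authors deposited 1 table of unnormalized read counts by Ensembl ID, with 58051 rows and none for unassigned reads. The submitters' processing notes name cutadapt, TopHat2 2.1, HTSeq and GRCh38. The annotation release, counting mode and strandedness were not given in the sources used here, so reads of overlapping genes on opposite strands may not be told apart. The labels give polyA RNA as the molecule, while their extraction protocol describes depletion of ribosomal RNA.

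Exonic lengths and coordinates come from GENCODE 29 on GRCh38, matched by gene ID. Symbols come from a list of gene names by Ensembl ID, or from GENCODE 29 where that list had none. In all, 57447 rows received a symbol. Genes were kept with filterByExpr (minimum count 10, minimum total 15), scaled by TMM and tested with edgeR 4.0.16 (R 4.3.3), a quasi-likelihood F-test on group alone. Adjustment was by Benjamini-Hochberg across 16690 genes, with a threshold of 0.05. The SE is the log2 fold change divided by the square root of F, and intervals are 95%. Values after ± are SDs unless named otherwise. Alternatives were upper-quartile scaling, the size factors of DESeq2, total counts, no filter, DESeq2 1.42.0, limma-voom (limma 3.58.1), a replicate block and leaving out each library. The test was also run on data simulated with the spread fitted to these libraries, so that run does not check the fitted spread itself.

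Library values are given for members with an unadjusted p under 0.05 and for the 2 most abundant per role, other cases being said. The members and lists were chosen with earlier results of these data known.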

Additional observations from a re-analysis of the deposited data

How the results depend on the processing

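The members past the threshold numbered 1, CD74, in the main test and 0 with total counts, where CD74 had an adjusted p = 0.0895 and all genes called numbered 496. Leaving out each library gave 0 to 1 members and 365 to 923 genes. Without Vehicle replicate 3 the genes numbered 923, and without TGFB1 replicate 1 they numbered 365. Upper-quartile scaling, DESeq2's size factors, DESeq2, limma-voom and no filter kept CD74 as the single member called. After each group's mean was taken off, same-numbered libraries correlated at -0.0577, 0.0642 and 0.0489. The highest correlation with a library of another number was 0.0626, -0.0213 and 0.079. With 3 libraries a group, such small values do not settle whether the numbers in the labels pair the libraries. With a replicate block, 601 genes and CD74 (adjusted p = 0.043) were called.

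Of 481 values of members under these alternatives, 46, from 17 members, changed sign, the largest reaching 0.1 on the log2 scale, and none was past the threshold. With total counts these were B2M (0.00395), TAPBPL (0.00558), PSME2 (0.00146), HLA-DRA (0.00104) and HLA-DRB1 (0.00514), and with no filter B2M (0.00721), TAPBPL (0.00827), PSME2 (0.00518), HLA-DRA (0.00427) and HLA-DRB1 (0.00842). With limma-voom it was TAPBPL (0.0145) and with upper-quartile scaling PDIA3 (-0.00293). Leaving out each library gave log2 fold changes of -0.0500 to 0.0297 for B2M, -0.339 to 0.0136 for CTSS, -0.0514 to 0.109 for HLA-DMA, -0.00838 to 0.147 for HLA-DMB, -0.0118 to 0.0677 for HLA-DPA1 and -0.133 to 0.047 for HLA-DQA1. The ranges were -0.0285 to 0.0892 for HLA-DQB1, -0.0446 to 0.0246 for HLA-DRA, -0.0194 to 0.0155 for HLA-DRB1, -0.0335 to 0.0227 for HLA-E, -0.0271 to 0.0551 for PDIA3 and -0.0148 to 0.0835 for PSME1. They were -0.0355 to 0.0221 for PSME2, -0.330 to 0.1004 for RFXAP, -0.0867 to 0.0234 for TAP1, -0.113 to 0.0195 for TAPBP and -0.109 to 0.0977 for TAPBPL. The cause of these shifts was not tested. The log2 ratios of the proteasome subunits kept their sign without any 1 library. By the longest transcript the class II share of the members' level was 37.3% in place of 42.2%. Counts under 100 in every library limit HLA-G, IFI30, RFXAP, CTSS and HLA-DQB1. HLA-F (87 in Vehicle replicate 1) and ERAP2 (99 in TGFB1 replicate 3) fell under 100 in 1 library each.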
